A study of Bos grunniens with 3 samples.

Results

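TIMP1, TIMP3, ADAMTS1 and ADAMTS4, a pair of metalloproteinase inhibitors and a pair of matrix proteases, were followed in 3 single-cell libraries of yak hair follicle. They were chosen by symbol from the gene list of the count matrices, where each symbol had 1 entry, and they are 4 of 26924 genes (15765 with a symbol). Their identifiers in the files are ENSBGRG00000015795 (TIMP1), ENSBGRG00000013366 (TIMP3), ENSBGRG00000000068 (ADAMTS1) and ENSBGRG00000001210 (ADAMTS4).

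TIMPs are small secreted proteins that block metalloproteinases by occupying the active site. TIMP1 inhibits most matrix metalloproteinases (MMPs) and is soluble, whereas TIMP3 stays bound to the extracellular matrix and also inhibits ADAM17 and several ADAMTS proteases. ADAMTS1 and ADAMTS4 are secreted proteases with thrombospondin motifs that cut the large proteoglycans versican and aggrecan. In each hair cycle the follicle rebuilds its epithelium, basement membrane and dermal sheath, so matrix proteases and their inhibitors are studied there.

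The samples were hair follicles pulled out of scapular skin after dispase digestion and then split into cells with trypsin, from healthy yaks of the Tianzhu white breed (around 2 years old). Most of the clusters that could be named were epithelial. Each of the 3 stages of the hair cycle, anagen (growth), catagen (regression) and telogen (rest), had 1 library of droplet 3′ RNA counts, with no treatment. The protocol text of the catagen sample speaks of anagen while its title and stage label say catagen, and the library is named catagen here by the label. The paper on these data names 3 yaks, sampled in anagen and catagen, and reports no telogen library. Which animals entered which library is not given in the sources used here. With 1 library per stage no difference between stages has a replicate check, so no test was run and stage, animal and library cannot be told apart.

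After removal of cells with fewer than 200 genes, 11987 anagen, 12062 catagen and 14502 telogen cells were kept, with 82816430, 51537357 and 103430933 transcripts counted by molecular identifier (UMIs). The median cell had 5256, 3350 and 5583.5 UMIs, and pairs of libraries shared 40 to 49 cell barcodes. Levels are in CPM, the UMIs of a gene divided by all UMIs of the pooled cells and multiplied by 1000000, and all intervals are exact 95% intervals that cover counting error only. Cells were clustered without the 4 genes and without the related genes listed for comparison (anagen with catagen in 26 clusters, telogen alone in 20). A cluster was called after a cell class only where at least 3 markers of that class were raised, and otherwise it is given by number and leading genes.

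TIMP1 was measured at 269 CPM (265 to 273) in anagen, 189 CPM (185 to 192) in catagen and 342 CPM (339 to 346) in telogen. The telogen library was the highest and the catagen library the lowest, with no overlap of the counting intervals. TIMP3 was measured at 34.5 CPM (33.2 to 35.8) in anagen, 46.9 CPM (45.0 to 48.8) in catagen and 16 CPM (15.2 to 16.8) in telogen. Its order was the opposite of that of TIMP1, with catagen on top and telogen last. ADAMTS1 was measured at 263 CPM (260 to 267) in anagen, 206 CPM (202 to 210) in catagen and 66.2 CPM (64.6 to 67.8) in telogen. ADAMTS4 was measured at 6.27 CPM (5.74 to 6.83) in anagen, 4.25 CPM (3.70 to 4.85) in catagen and 0.889 CPM (0.717 to 1.09) in telogen, which rests on 519, 219 and 92 UMIs. Both proteases were therefore highest in anagen and lowest in telogen.

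**Figure D1:**
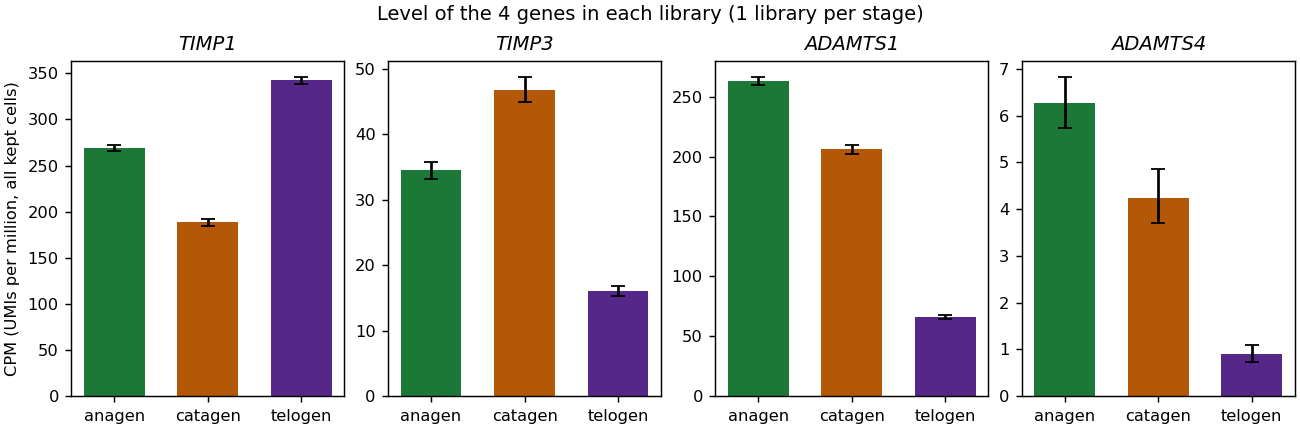
Level of each gene in CPM (y axis, linear from 0, a scale of its own per gene) in the pooled cells of the anagen, catagen and telogen libraries. Bars are the levels and whiskers the exact 95% Poisson intervals, and the telogen bar is the highest for TIMP1 (342 CPM) and the lowest for TIMP3 (16 CPM), ADAMTS1 (66.2 CPM) and ADAMTS4 (0.889 CPM).

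Between the pooled libraries the log2 ratio of telogen to anagen was 0.35 (0.32 to 0.37) for TIMP1, −1.11 (−1.20 to −1.02) for TIMP3, −1.99 (−2.03 to −1.95) for ADAMTS1 and −2.82 (−3.15 to −2.49) for ADAMTS4. ADAMTS1 was thus 3.97-fold lower in telogen, and 1.2% of the 5733 genes at 10 CPM or more had a lower ratio. TIMP3 and ADAMTS1 were at least 2-fold lower in telogen, as were 7.83% of those genes, and none of the 3 members at 10 CPM or more was at least 2-fold higher (3% of genes). Against catagen, the telogen ratio was 0.86 (0.83 to 0.89) for TIMP1, −1.55 (−1.64 to −1.46) for TIMP3, −1.64 (−1.68 to −1.59) for ADAMTS1 and −2.26 (−2.62 to −1.90) for ADAMTS4. TIMP3 and ADAMTS1 were again the members at least 2-fold lower, beside 12% of 5971 genes, and TIMP1 lay above 93.8% of genes (4.1% were at least 2-fold higher). From anagen to catagen the ratios were smaller, at −0.51 (−0.55 to −0.48) for TIMP1, 0.44 (0.36 to 0.52) for TIMP3, −0.35 (−0.39 to −0.32) for ADAMTS1 and −0.56 (−0.80 to −0.33) for ADAMTS4. No member reached 2-fold in that comparison, where 4.41% of 6054 genes were at least 2-fold higher and 3.47% lower. The 3 comparisons share libraries and are not independent of each other. The median gene had a ratio of 0.05 in catagen over anagen, −0.18 in telogen over anagen and −0.25 in telogen over catagen. Median-of-ratios scaling, whose factors differed from the library totals by 0.25, −0.25 and −0.50 on the log2 scale in these comparisons, left each direction as given but brought TIMP3 in telogen over anagen to −0.86, under 2-fold. In pooled cells, fewer cells of a type and fewer transcripts per cell give the same change in level, so the genes were next followed cluster by cluster.

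TIMP1 was found in every cluster of at least 30 cells, and its highest levels were in companion-like and dermal sheath-like clusters. In anagen, cluster 17, which was led by the companion layer keratin KRT75 with TF and WNT11, held 1416 CPM (1347 to 1488) in 107 cells. Cluster 21, which had ACTA2 and TAGLN among its leading genes and was named pericyte- and dermal sheath-like, held 1124 CPM in 131 cells. With anagen clustered alone, the best overlap of these cells with a cluster was 0.336, so they had no counterpart there. Cluster 8, unnamed and led by ATP6V1B1, TPM1 and CRABP2, held 981 CPM in 578 cells and with that 19.7% of all anagen TIMP1 UMIs. The lowest anagen clusters were the inner root sheath (IRS)-like cluster 11 at 48.8 CPM and the unnamed cluster 14 at 34.1 CPM.

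In catagen, cluster 17 again stood first at 1454 CPM in 189 cells, with 21.9% of the TIMP1 UMIs of the library. Cluster 21 followed at 859 CPM, while cluster 8 was at 308 CPM. In telogen, the companion-like cluster 14 (TF, KLK12, KRT75) held 1285 CPM (1227 to 1345) in 95 cells, and the unnamed cluster 7 (TAGLN, TPM1, S100A2) held 814 CPM in 770 cells. Clusters 17 and 14 therefore lay within 1285 to 1454 CPM over the 3 stages, although the libraries differed by more than that in ratio. Cluster 2, the larger companion-like cluster of anagen and catagen, was at 299 CPM in 1164 cells and 228 CPM in 874 cells. The S phase-like and mitotic-like telogen clusters, 541 and 459 CPM, stood above their anagen classes at 181 and 110 CPM and their catagen classes at 81.1 and 49.3 CPM.

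The levels of TIMP3, the matrix-bound inhibitor, were more uneven between clusters. Its highest anagen level was in the small unnamed cluster 24, led by MMP7, MGP and FILIP1, with 545 CPM (472 to 626) in 32 cells. The dermal sheath-like cluster 21 followed at 283 CPM, then cluster 22 at 216 CPM and cluster 10, outer root sheath-like with SFRP1 and LGR5, at 193 CPM. The suprabasal-like cluster 1 and the basal-like cluster 5 were lowest at 4.72 and 5.79 CPM. MMP7 (matrilysin, a protease) was at 5150 CPM in the anagen cells of cluster 24, at 4987 CPM in its catagen cells and at 4086 CPM in the telogen cluster with the same leading genes. In these MMP7 clusters TIMP3 was at 545, 297 and 319 CPM. The log2 ratio of telogen was −0.77 (−1.06 to −0.48) to anagen and 0.10 (−0.25 to 0.46) to catagen, so that telogen and catagen were not distinguishable here.

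In catagen a different cluster came first. Cluster 20, led by the kallikreins KLK7 and KLK6 and by SLC15A1, held 410 CPM of TIMP3 in 86 catagen cells but 63.6 CPM in anagen, a log2 ratio of 2.69 (2.34 to 3.05). These catagen cells had no counterpart under the other clusterings. The best overlap was 0.125 at resolution 0.4, 0.406 at resolution 1.2 and 0.108 with catagen clustered alone. The MMP7 cluster 24 had none at resolution 1.2 (0.199 in anagen, 0.460 in catagen), nor had the telogen MMP7 cluster, 16, at resolution 0.4 (0.351). The unnamed cluster 16, led by FGF18, PMP22 and IGFBP7, held 278 CPM in 438 catagen cells and 15.2% of the TIMP3 UMIs. In telogen, TIMP3 was at 319 CPM in the MMP7 cluster, 191 CPM in the companion-like cluster 14 and 179 CPM in the endothelial-like cluster 18, and at or under 35.7 CPM in all other clusters. The top 1% of cells by TIMP3 held 30.1% of its UMIs in anagen, 31.8% in catagen and 48.2% in telogen.

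ADAMTS1 had a broad epithelial distribution and a high level in the clusters led by endothelial genes. That phrase means that at least 3 endothelial markers were raised and at least 1 was among the 10 leading genes. It does not mean that all cells were endothelial, and the first leading gene of cluster 22 was the collagen COL1A2. In anagen, cluster 22 (815 CPM, 739 to 897) and the unnamed cluster 7, with FST, EMP3 and NRG1 among its leading genes (776 CPM, 752 to 800), had overlapping intervals. Cluster 7 had 920 cells and 19.1% of the ADAMTS1 UMIs. At resolution 0.4 its best overlap was 0.257, so it had no counterpart there. The catagen cells of cluster 7 had none at resolution 0.4 (0.090) or with catagen clustered alone (0.199). The basal-like cluster 0 followed at 493 CPM, and the IRS-like cluster 11 was lowest at 53.1 CPM. In catagen, the companion-like cluster 17 (713 CPM, 671 to 758) and cluster 7 (645 CPM, 608 to 683) overlapped, cluster 22 followed at 554 CPM, and cluster 11 was again lowest at 14.4 CPM. In telogen, the endothelial-like cluster 18 stood alone at 863 CPM (756 to 982), above the companion-like cluster 14 at 337 CPM and cluster 8 at 190 CPM. Every other telogen cluster was at or under 110 CPM. Telogen cluster 8 had no counterpart at resolution 0.4 (0.275).

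**Figure D2:**
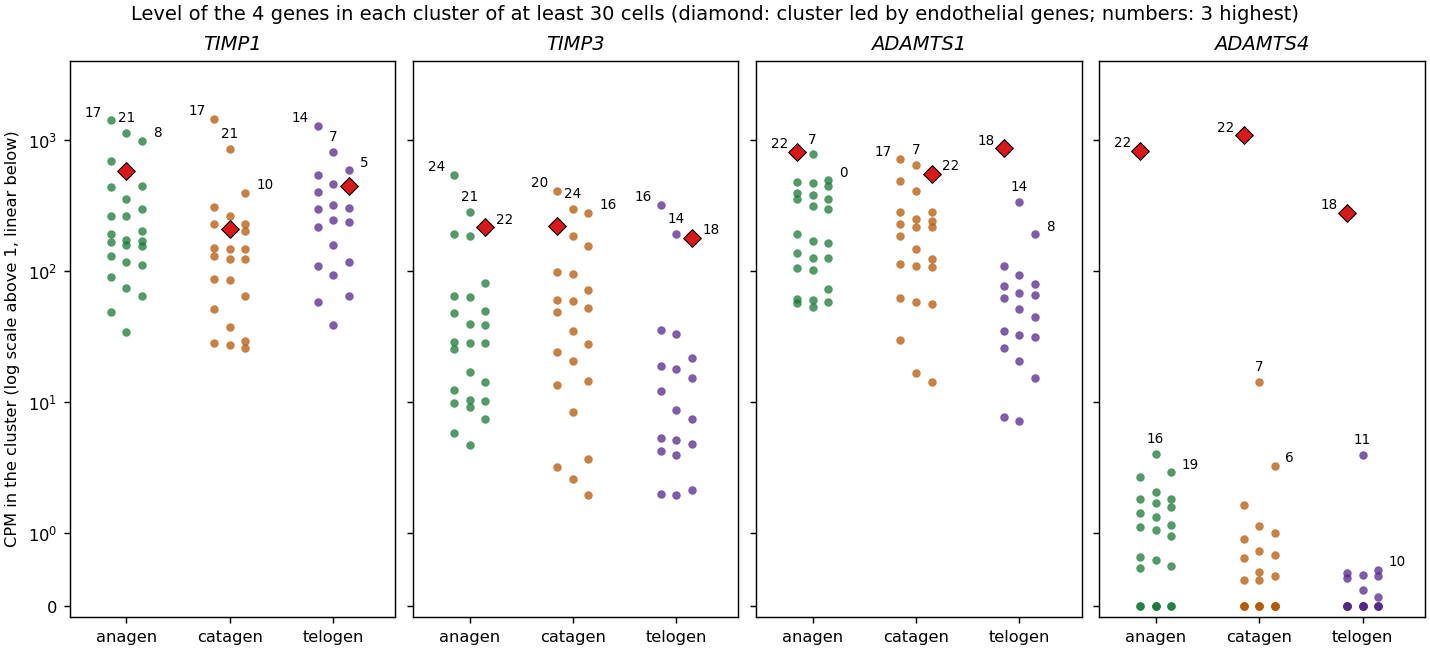
Level of each gene in CPM (y axis, logarithmic above 1 and linear below) in every cluster of at least 30 cells, by library on the x axis, with the 3 highest clusters numbered and the clusters led by endothelial genes drawn as red diamonds. ADAMTS4 stood at 831, 1088 and 279 CPM in those clusters and at or under 14.2 CPM in the others, whereas TIMP1 was spread from 34.1 to 1416 CPM over the anagen clusters.

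The lower level of ADAMTS1 in telogen than in anagen was found inside the epithelial classes. In the basal-like class it was at 382 CPM in anagen, 254 CPM in catagen and 65.1 CPM in telogen, a telogen to anagen log2 ratio of −2.55. In the suprabasal-like class it was at 93.2 CPM in anagen and 15.2 CPM in telogen (−2.61), in the outer root sheath-like class at 382 and 93.3 CPM (−2.03) and in the hair cortex-like class at 60.1 and 7.66 CPM (−2.97). The S phase-like, mitotic-like and IRS-like classes gave −1.34, −1.10 and −1.04. ADAMTS1 was thus lower in telogen in all 8 epithelial classes, as were 21.4% of the 4299 genes tested there, and at least 2-fold lower in 7. The companion-like class was the exception, at 461 CPM in anagen and 337 CPM in telogen (−0.45). Under median-of-ratios scaling ADAMTS1 was lower in 8 of 8 and at least 2-fold lower in 5, with the IRS-like and mitotic-like classes also under 2-fold. For every gene the classes leave out the unnamed telogen clusters. The largest of these were clusters 0, 2, 3 and 4, with 2532, 1691, 1378 and 1364 of the 14502 telogen cells. ADAMTS1 was at 34.6, 32.6, 61.8 and 77.0 CPM in them. Most classes joined several clusters in anagen and 1 in telogen, so clusters were also matched by their leading genes. Telogen clusters 0, 2, 3 and 4 had too few shared leading genes for a match. Over 11 telogen clusters that shared at least 5 of 10 leading genes with an anagen cluster, ADAMTS1 was lower in 9 and higher in 0, with a median log2 ratio of −2.09. In the counterpart of companion-like cluster 17 it was at 312 CPM in anagen and 337 CPM in telogen (0.11, −0.09 to 0.31). In catagen it was below anagen in all 8 classes (a median of −0.62), as 19.7% of 4380 genes were. Telogen against catagen was less uniform. ADAMTS1 was lower in 6 of 8 classes, level in the companion-like class (−0.05, −0.19 to 0.09) and higher in the IRS-like class (0.85, 0.28 to 1.45). Over 10 matched clusters it was lower in 8 and higher in 2. Under median-of-ratios scaling 3 of 8 classes were at least 2-fold lower and 1 at least 2-fold higher.

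In the clusters led by endothelial genes ADAMTS1 was at 815 CPM in anagen, 554 CPM in catagen and 863 CPM in telogen. The telogen to anagen log2 ratio was 0.08 (−0.16 to 0.32). Anagen cluster 22 also held 31 cells with mesenchymal markers, where ADAMTS1 was at 261 CPM, against 3 such cells in telogen. In the cells with at least 3 endothelial markers and of no other class (37 in anagen, 12 in catagen and 27 in telogen) ADAMTS1 was at 1523, 1657 and 1035 CPM, and telogen was below anagen (−0.56, −0.83 to −0.29). TIMP3 was at 216, 222 and 179 CPM in the clusters (−0.27, −0.79 to 0.23), but at 367, 246 and 164 CPM in their endothelial-marker cells, again lower in telogen than in anagen (−1.16, −1.82 to −0.53). In the basal-like class TIMP3 was at 15, 15.1 and 2.15 CPM and in the outer root sheath-like class at 127, 91.3 and 35.7 CPM. TIMP3 was lower in telogen than in anagen in 6 of 8 epithelial classes and higher in the IRS-like (0.85) and companion-like (3.73) classes. Over 11 clusters matched by leading genes TIMP3 was lower in 6 and higher in 3, with a median of −1.21. Against catagen, telogen was lower in 5 of 8 classes and higher in 1 (median −1.45). Over 10 matched clusters, however, it was lower in 3 and higher in 1 (median −0.23). In the companion-like clusters 17 and 14 TIMP3 was at 28.9 CPM in anagen, 97.7 CPM in catagen and 191 CPM in telogen.

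For TIMP1, telogen stood above catagen rather than below it. TIMP1 was below anagen in catagen in 7 of 8 epithelial classes (median −1.07). The companion-like class was above it (0.21, 0.14 to 0.27), which turned to lower under median-of-ratios scaling, where 8 of 8 were lower. Neither cluster of that class was clearly higher alone, at −0.39 (−0.49 to −0.28) in cluster 2 and 0.04 (−0.06 to 0.13) in cluster 17. Cluster 17, where TIMP1 was higher, made up 107 of 1271 anagen and 189 of 1063 catagen cells of the class. The part of this mix in the class ratio was not tested. TIMP1 was above catagen in telogen in 8 of 8 (median 1.55), as 12.8% of 4330 genes were. Over 10 clusters matched by leading genes TIMP1 was higher in 9 and lower in 1, the companion-like one (−0.18, −0.27 to −0.09). Telogen against anagen depended on how cells were matched. By class TIMP1 was higher in 7 of 8 and lower in the hair cortex-like class (−0.36), with a median of 0.78, whereas over the 11 clusters matched by leading genes it was lower in 6 and higher in 4, with a median of −0.14. By class the highest ratios were in the mitotic-like (2.06), S phase-like (1.58) and companion-like (1.54) classes. The companion-like class joined clusters 2 and 17 in anagen but was cluster 14 alone in telogen. Between clusters 14 and 17 the ratio was −0.14 (−0.24 to −0.04), at 1285 against 1416 CPM. The matched mitotic-like and S phase-like clusters gave 1.27 and 1.04.

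**Figure D3:**
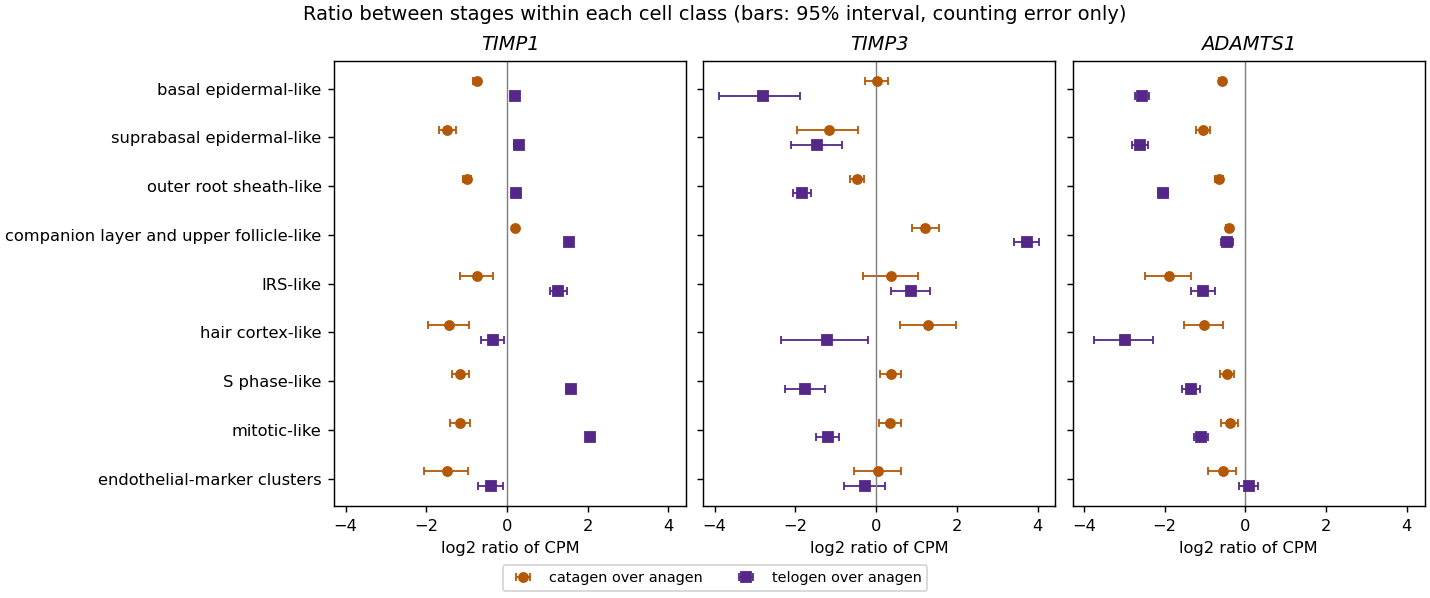
Log2 ratio of CPM (x axis) of catagen over anagen (orange circles) and telogen over anagen (purple squares) for TIMP1, TIMP3 and ADAMTS1 in 8 epithelial classes and the clusters led by endothelial genes, with exact 95% intervals for counting error. For telogen over anagen, ADAMTS1 lies left of 0 in each epithelial class and at 0.08 in the endothelial-led clusters, where anagen also held mesenchymal cells. The companion-like class joined clusters 2 and 17 in anagen and catagen but cluster 14 alone in telogen.

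ADAMTS1 is known as a gene that is quickly induced in stressed or stimulated cells, so it was set beside 15 early-response genes such as FOS, JUN and EGR1. Their summed level was 9843 CPM in anagen, 11086 CPM in catagen and 4804 CPM in telogen, and 9 of the 15 were at least 2-fold lower in telogen than in anagen and 0 higher (median −1.08), beside 7.83% of all genes lower. Under median-of-ratios scaling 5 of the 15 were lower (median −0.84). In catagen against anagen 4 of the 15 were at least 2-fold higher and 0 lower (median 0.69), beside 4.41% of all genes higher. ADAMTS1 was lower in that comparison (−0.35). With median-of-ratios scaling 1 of the 15 was higher there and 2 were lower (median 0.44). The telogen cluster 8, which was led by BTG2, CSRNP1, NR4A2 and ATF3, had the highest early-response sum of its library (10870 CPM) and ADAMTS1 at 190 CPM. The endothelial-like telogen cluster had a sum of 9108 CPM, and the companion-like telogen cluster had 3095 CPM with ADAMTS1 at 337 CPM. The part of early-response induction in the ADAMTS1 difference was not tested.

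**Figure D4:**
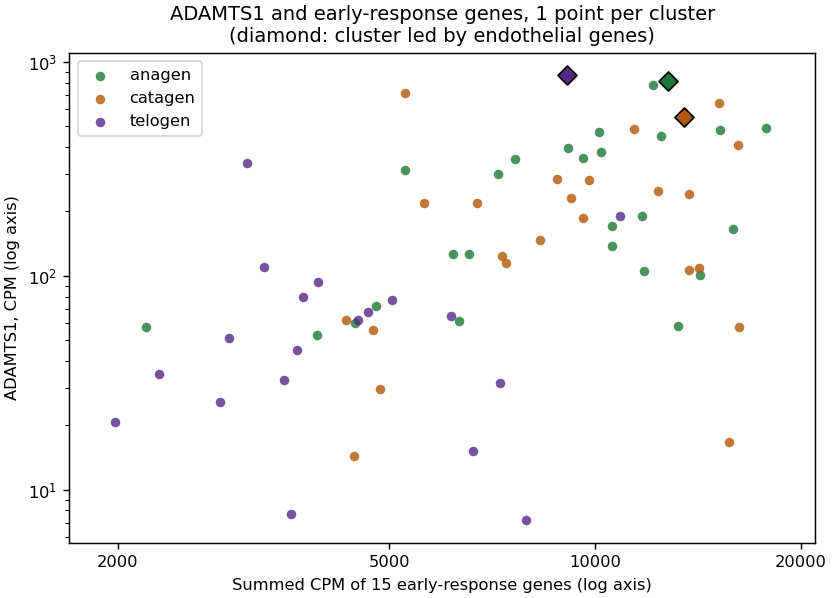
ADAMTS1 level (y axis, CPM, logarithmic) against the summed level of 15 early-response genes (x axis, CPM, logarithmic), with 1 point per cluster and library and the endothelial-led clusters as diamonds. Most telogen clusters lie at the lower left, and the endothelial-like telogen cluster is at 863 CPM with a sum of 9108 CPM.

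ADAMTS4 was concentrated in the clusters led by endothelial genes. Anagen and catagen cluster 22 (113 and 66 cells, 0.943% and 0.547% of the libraries) had PECAM1, ACKR1 and CCL21 among its leading genes together with the fibroblast collagens COL1A2 and COL3A1, so that it was left unnamed. Telogen cluster 18 (47 cells, 0.324%) was endothelial-like. These clusters held 424 of 519 ADAMTS4 UMIs in anagen (81.7%), 167 of 219 in catagen (76.3%) and 75 of 92 in telogen (81.5%). The level was 831, 1088 and 279 CPM in them and 1.15, 1.01 and 0.165 CPM in all other cells, log2 ratios of 9.49 (9.17 to 9.83), 10.07 (9.61 to 10.55) and 10.73 (9.95 to 11.58). The other members were less different there. ADAMTS1 exceeded the other cells by 1.65, 1.43 and 3.75 on the log2 scale, TIMP3 by 2.69, 2.26 and 3.52, and TIMP1 by 1.13, 0.14 and 0.37. TIMP1, TIMP3 and ADAMTS1 were at least 2-fold higher in anagen cluster 22, as were 21.1% of genes. In catagen and telogen TIMP3 and ADAMTS1 were, beside 33.2% and 23.9% of genes. ADAMTS4 was under 10 CPM in the other cells and passed the 10 CPM filter only through these clusters, so it is not counted. The shares of genes include others that passed in that way.

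The summed level of 8 endothelial markers was 1728, 1453 and 2567 CPM in these clusters against 2.99, 2.37 and 1.96 CPM elsewhere, with ESAM at 0 in anagen. Mesenchymal markers summed to 6346, 267 and 1172 CPM in them, pericyte markers to 537, 906 and 1131 CPM and immune markers to 216, 691 and 48.4 CPM. In catagen the highest non-epithelial sum was that of melanocyte markers, at 2933 CPM in cluster 22 against 8.19 CPM elsewhere, with 3 of 4 raised. The part of melanocytes in its values was not tested. Basal epidermal markers summed to 4822, 4340 and 8614 CPM in these clusters, above the endothelial markers, against 12562, 15090 and 22951 CPM elsewhere. The part of epithelial RNA in the levels read from these clusters was not tested. The cells were therefore split by their own markers after these values were seen. In anagen, 37 cells with at least 3 endothelial markers and no other class held 337 of the 424 UMIs (1901 CPM), and 31 cells with at least 3 mesenchymal markers held 63. In catagen, 12 endothelial-marker cells held 71 UMIs (1589 CPM), while 4 pericyte-marker cells held 89 and 47 of the 66 cells, with fewer than 3 markers of each of these 3 classes, held 5. In telogen, 27 endothelial-marker cells held 39 UMIs (200 CPM) and 1 pericyte-marker cell held 33.

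Single cells weighed on ADAMTS4 in catagen and telogen. The cell with the most ADAMTS4 had 49 UMIs in anagen (11.6% of the cluster's), 74 in catagen (44.3%) and 33 in telogen (44%). The catagen and telogen cells had no endothelial marker, and 5 and 3 pericyte markers. Without these cells the cluster level was 741, 612 and 158 CPM, and the pooled log2 ratio of catagen to anagen was −1.01 in place of −0.56. Within the clusters ADAMTS4 was lower in telogen than in anagen (−1.57, −1.95 to −1.22), by −2.23 (−2.73 to −1.77) without the top cells and by −3.25 (−3.77 to −2.77) in the endothelial-marker cells alone. It was higher in catagen than in anagen (0.39, 0.12 to 0.65), but not without the top cells (−0.28, −0.62 to 0.05) or in the endothelial-marker cells (−0.26, −0.65 to 0.11).

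**Figure D5:**
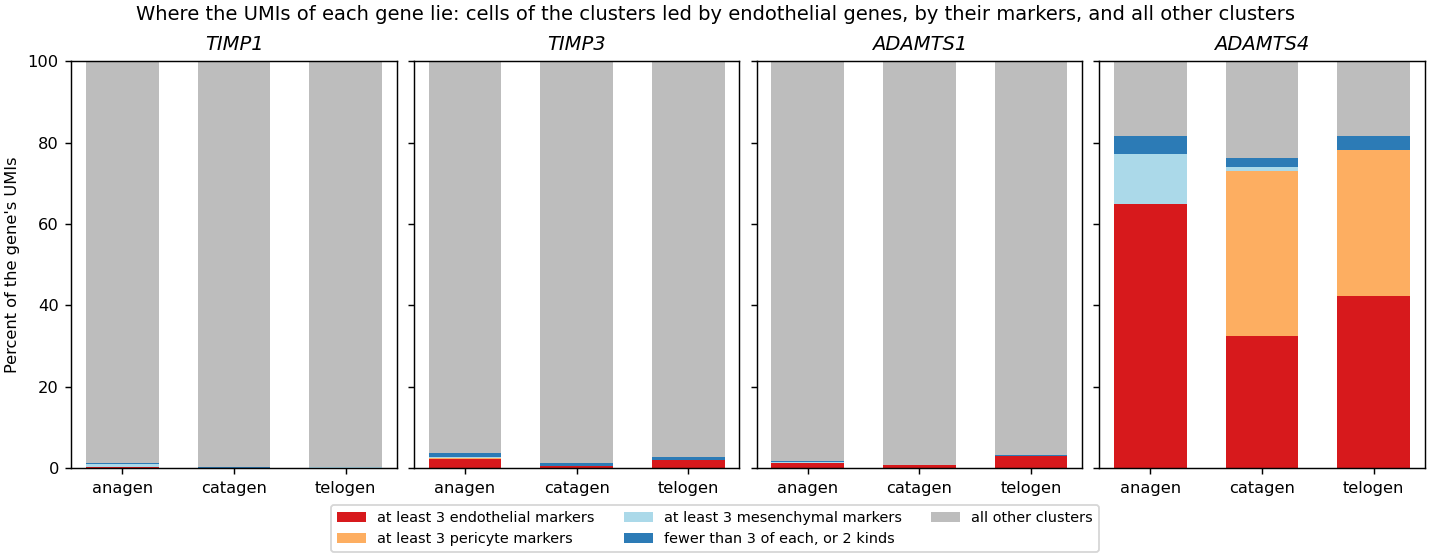
Percent of each gene's UMIs (y axis, stacked to 100) by library (x axis) in the endothelial-led clusters, with their cells coloured by the markers each cell carried, and in all other clusters (grey). ADAMTS4 had 81.7%, 76.3% and 81.5% of its UMIs in the endothelial-led clusters, mostly in endothelial-marker cells in anagen and partly in pericyte-marker cells in catagen and telogen, while the other genes lay almost wholly in the grey.

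The 4 genes differed between endothelial and mesenchymal cells of the anagen library. Over 39 cells with at least 3 endothelial markers and 36 with at least 3 mesenchymal markers, TIMP1 was lower in the endothelial cells, at 305 against 981 CPM (−1.69, −2.12 to −1.27). TIMP3 was higher in them at 305 against 62.4 CPM (2.29, 1.36 to 3.36). ADAMTS1 was higher at 1278 against 272 CPM (2.23, 1.79 to 2.70), and ADAMTS4 at 1533 against 357 CPM (2.1, 1.71 to 2.51). The catagen and telogen libraries held 3 mesenchymal-marker cells each in these clusters, too few for the same comparison. In 10 anagen and 7 catagen cells with at least 3 immune markers, ADAMTS1 and ADAMTS4 had 0 UMIs.

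Outside the endothelial-led clusters, ADAMTS4 had 95 UMIs in 73 anagen cells, 52 in 29 catagen cells and 17 in 14 telogen cells. Per UMI of PECAM1 there were 0.702 ADAMTS4 UMIs inside and 0.95 (0.710 to 1.27) outside in anagen, intervals that overlap. In catagen the ratios were 1.04 (0.835 to 1.30) inside and 5.2 (2.61 to 11.5) outside, and in telogen 0.164 (0.127 to 0.209) inside and 0.607 (0.312 to 1.15) outside. The catagen value outside rests on 10 PECAM1 UMIs. Per 100 UMIs of the summed endothelial markers there were 48.1 ADAMTS4 UMIs inside and 38.6 outside in anagen. In catagen there were 74.9 and 42.6 and in telogen 10.9 and 8.42. Outside, KDR made up 1.31 of the 2.99 CPM of these markers in anagen, 1.71 of 2.37 in catagen and 1.40 of 1.96 in telogen. Inside it was 62.7 of 1728, 32.6 of 1453 and 55.8 of 2567 CPM. The sum thus differed in make-up inside and outside, so this measure cannot show whether there was an excess outside. The catagen excess per UMI of PECAM1 was partly in cluster 7, where 8 of 391 cells held 25 UMIs (14.2 CPM, up to 11 in a cell) and no UMI of the endothelial markers. These catagen cells had no counterpart at resolution 0.4 or with catagen clustered alone.

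For detection, 1500 UMIs were drawn from each cell, and 2263 catagen and 2932 telogen cells with fewer were left out. TIMP1 was then detected in 23.6% of anagen, 19.7% of catagen and 27.3% of telogen cells (49.2%, 33.7% and 50.9% unthinned). TIMP3 was detected in 4.86%, 6.4% and 2.41% (13.2%, 11.4% and 6.16%), and ADAMTS1 in 23.2%, 18.3% and 7.71% (43.1%, 27.5% and 18.1%). ADAMTS4 was detected in 59, 18 and 7 cells, or 0.492%, 0.184% and 0.0605% (0.926%, 0.340% and 0.179% unthinned). The IRS-like cells, where TIMP1 and ADAMTS1 were low in CPM, were chosen beforehand as a background for free RNA, at median depths of 4150, 7366 and 11671 UMIs against 5256, 3350 and 5583.5 in all cells. They gave 10.1%, 1.89% and 12.7% for TIMP1, 2.99%, 1.89% and 4.51% for TIMP3, and 12.1%, 3.3% and 4.51% for ADAMTS1, and 0.332% for ADAMTS4 in anagen and 0 in the other libraries. For TIMP3 in telogen the IRS-like share was above that of the whole library. The TIMP3 share in telogen was 0.353% in suprabasal-like, 0.4% in basal-like and 0.621% in hair cortex-like cells. It was 1.88% in S phase-like, 2.5% in mitotic-like, 5.84% in outer root sheath-like and 26.3% in companion-like cells. The IRS-like share was thus not a floor for free RNA. The part of free RNA in the telogen share was not tested, and no expression is read from that share outside the clusters named above. In the endothelial-led clusters ADAMTS4 was detected in 26.5%, 16.7% and 16.3% of thinned cells, against 0.244%, 0.113% and 0 of the other cells, a count of 0 that allows up to 0.026%.

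TIMP1 and ADAMTS1 were found in the same cell in 867 anagen (7.23%), 436 catagen (4.45%) and 303 telogen cells (2.62%). That is 1.32, 1.23 and 1.25 times the product of the single shares. Within clusters the median ratio was 1.06 over 19 anagen clusters, 0.98 over 12 catagen clusters and 1.02 over 12 telogen clusters, so that beyond their shared clusters the genes were seen together about as often as the product gives. TIMP1 with TIMP3 (1.34, 1.44 and 1.30 times the product) and TIMP3 with ADAMTS1 (1.17, 1.28 and 1.81 times) were also above the product over all cells, with medians within clusters of 0.92, 1.08 and 1.16 and of 0.97, 1.05 and 1. Of the cells with ADAMTS4, 27 of 59 in anagen, 8 of 18 in catagen and 4 of 7 in telogen also had ADAMTS1. Inside the endothelial-led clusters that pair was seen in 18 of 113, 5 of 42 and 4 of 43 thinned cells, 1.44, 2.73 and 1.54 times the product. These clusters were mixed. In anagen ADAMTS1 and ADAMTS4 were at 1523 and 1901 CPM in endothelial-marker cells, and at 261 and 421 CPM in mesenchymal-marker cells. The part of this mix in the ratio to the product was not tested. All 4 genes were found together in 3 anagen, 0 catagen and 2 telogen cells, each of them in these clusters, while 57.8%, 62.9% and 66.3% of all cells had none of the 4.

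Over 66 cluster levels centred by library, the genes whose pattern was most like that of a member were named as a description. TIMP1 was followed most closely by ACTN1 (Pearson r = 0.84), CIB2 (0.79) and MSN (0.76), and ADAMTS1 by ECE1 (0.82), ACTN1 (0.79) and H6PD (0.76). TIMP3 was followed by TCF7L2 (0.82), CCNI (0.77) and ST3GAL4 (0.77). ADAMTS4 was followed by the endothelial cadherin CDH5 (0.90), NR2F1 (0.89) and ZEB2 (0.89). This likeness is of anagen and catagen, since the 47 telogen endothelial-like cells were below the 50 cells required. Over telogen clusters alone r was −0.01, −0.16 and 0.004. In anagen the 3 genes were at 80.3, 62.7 and 39.2 CPM in cluster 22 but at 0.616, 0.459 and 0.290 CPM in the pooled library. In catagen they were also highest in cluster 22. The correlations thus rest on cluster 22, and any gene confined to it would score alike. Between members, TIMP1 and ADAMTS1 had r = 0.78, TIMP3 had 0.48 with ADAMTS1 and 0.47 with TIMP1, and ADAMTS4 had 0.10 to 0.28 with the others. These points share libraries and depth.

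The remaining genes of the metalloproteinase system were mostly low. Of 59 listed inhibitor, ADAMTS, ADAM, MMP and matrix genes outside the 4, 9 were at 10 CPM or more in anagen or catagen. In catagen 0 of the 9 were at least 2-fold higher and 2 lower (MMP1, HAS3), beside 4.41% and 3.47% of all genes. Their median log2 ratio was −0.27 beside 0.05 over all genes. In telogen against anagen the counts were the same, 0 of 9 higher and 2 lower, beside 3% and 7.83% of all genes. The median was −0.52 beside −0.18. Against catagen, TIMP2 alone was at least 2-fold higher and 0 of 7 were lower, beside 4.1% and 12% of all genes. Counts of 9 and 7 genes are too small to be set apart from these shares. TIMP2, an inhibitor that also takes part in pro-MMP2 activation, was at 105 CPM in anagen, 86.9 CPM in catagen and 202 CPM in telogen, and at 703, 684 and 700 CPM in the endothelial-led clusters.

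TIMP4 was under 1 CPM in each library but at 64.7, 137 and 55.8 CPM in the endothelial-led clusters. A2M, a broad protease trap, was at 49.7 and 171 CPM in the dermal sheath-like cluster 21 of anagen and catagen. The related proteases ADAMTS5 and ADAMTS9, which also cut aggrecan and versican, were at 110, 104 and 22.3 CPM and at 139, 150 and 52.1 CPM in the endothelial-led clusters, and ADAMTSL5, which has no protease domain, at 121, 78.2 and 26.0 CPM. All 3 were lowest in telogen there, as ADAMTS4 was, but from 47 telogen cells and without intervals. They were named for reaching 100 CPM in a cluster, which none of them did in telogen. MMP28, named by the same rule, was highest in telogen there, at 41.1, 13.0 and 119 CPM. These genes were not followed in the endothelial-marker cells alone. Anagen cluster 22 also held 31 cells with mesenchymal markers only, against 3 in the telogen cluster. The cell-surface sheddases ADAM10 (62.3, 90.3 and 59.4 CPM) and ADAM17 (49.3, 33.7 and 31.0 CPM) were measured in each library. The collagenase MMP1 was at 20.4 CPM in anagen, 0.56 CPM in catagen and 2.07 CPM in telogen, with 88.4 CPM in the basal-like anagen cluster 4. HAS3, a hyaluronan synthase, was at 47.4, 11.7 and 15.8 CPM, with 185 CPM in the same cluster. CD44, the hyaluronan receptor, was at 505, 610 and 499 CPM.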

How the data were processed

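Hair follicle cells of yak were counted in 3 droplet libraries (anagen, catagen, telogen), which were grouped by stage from the labels. The authors deposited UMI counts per gene and cell with no normalization. The submitters' processing notes name Cell Ranger 2.1.1 while the headers of the deposited counts name 4.0.0 (anagen), 3.1.0 (catagen) and 6.0.2 (telogen), and such a difference in counting could move genes between libraries. The genome build is not given in the sources used here. The members and gene lists were chosen with earlier results of these data known.

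Cells with at least 200 genes were kept, with totals per library of 82816430, 51537357 and 103430933 UMIs, which set the counting intervals. Clusters came from Seurat 5.3.0 (2000 variable genes without the members and listed genes, 30 components, 20 neighbours, resolution 0.8; anagen and catagen integrated by CCA anchors). A class name needed 3 markers raised 1.5-fold (10 CPM added), and the rule that left ties unnamed was set after the clusters were seen. Doublets were scored with Scrublet, which called 0 cells, so the caller had not worked, and the highest 5% of scores were removed as an alternative. Levels were summed counts scaled by the total (CPM), ratios had exact binomial intervals, levels exact Poisson intervals and shares exact Clopper-Pearson intervals (95%), and a count of 0 was given the limit of 3 counts. Genes tested between libraries or clusters had at least 10 CPM in either, and called genes were at least 2-fold apart. No test was run, since each stage had 1 library. Named genes were the 4 members, listed genes at 20 CPM or more in a library or 100 CPM or more in a class or cluster of at least 30 cells, and for each member the 3 genes with the highest correlation over clusters of at least 50 cells (log2 of CPM plus 1; genes at 50 CPM or more in a cluster). Reads of SYN1 and SYN3, which overlap TIMP1 and TIMP3, were low (1.13 to 2.22 CPM and 0.06 to 0.33 CPM). The step that computes ratios was tested on simulated data. Alternatives were another scaling, the mean over cells, stricter cell filters, other thinning depths, other clusterings and a marker gate for each cell. The other steps used scanpy 1.11.5, scipy 1.17.1, pandas 2.3.3 and numpy 2.4.6 under Python 3.11.15.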

Additional observations from a re-analysis of the deposited data

Results flagged for a closer look

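For 3 of the genes, clusters moved in opposite directions from anagen to catagen. Each is 1 library against 1 library, and the difference between the clusters was not tested. ADAMTS1 was higher in catagen in the companion-like cluster 17 (log2 ratio 1.19; 312 against 713 CPM) and lower in the IRS-like cluster 11 (−1.89; 53.1 against 14.4 CPM). TIMP1 was higher in catagen in the unnamed cluster 14 (1.94; 34.1 against 131 CPM, from 60 and 31 UMIs) and lower in the suprabasal-like cluster 13 (−2.11). TIMP3 was higher in catagen in cluster 20, led by kallikrein genes (2.69), and lower in cluster 13 (−1.94). The catagen cells of cluster 20 had no counterpart under the other clusterings.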

How the results depend on the processing

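No direction of a pooled ratio between libraries turned under the alternatives, while sizes moved. Median-of-ratios scaling gave TIMP1 −0.77, 0.60 and 1.36 (catagen over anagen, telogen over anagen, telogen over catagen), TIMP3 0.19, −0.86 and −1.05, ADAMTS1 −0.61, −1.74 and −1.14, and ADAMTS4 −0.81 and −1.76 in the catagen over anagen and telogen over catagen ratios. Averaging the CPM of single cells gave TIMP1 −0.56, 0.14 and 0.70, TIMP3 −1.27 and −1.68 for telogen over anagen and catagen, ADAMTS1 −0.45 and −2.08 for catagen and telogen over anagen, and ADAMTS4 −0.10 for catagen over anagen. Cells with at least 1000 genes gave TIMP1 0.89 in telogen over catagen and ADAMTS4 −1.55 and −3.45 in catagen and telogen over anagen, and a common floor of 2404 UMIs per cell gave ADAMTS4 −1.29 and −1.50 in catagen over anagen and telogen over catagen. Leaving out the cell with the most ADAMTS4 in each library, an alternative chosen after seeing the data, gave −1.01 and −3.31 in catagen and telogen over anagen, and 9.24 and 9.90 for the endothelial-led clusters over other cells in catagen and telogen. With endothelial cells gated by at least 3 markers in each cell in place of clusters, the log2 ratio over other cells was 0.18 (TIMP1), 3.17 (TIMP3) and 2.30 (ADAMTS1) in anagen, 3.02 (ADAMTS1) and 9.11 (ADAMTS4) in catagen, and −0.062 for TIMP1 (reversed from 0.37), 4.01 (ADAMTS1) and 8.60 (ADAMTS4) in telogen, from cells chosen by their own markers. Between stages within the endothelial-led clusters, the same kind of cells, an alternative chosen after seeing the data, turned TIMP1 in telogen over anagen (0.028 against −0.40), ADAMTS1 in catagen over anagen (0.12 against −0.56) and telogen over catagen (−0.68 against 0.64) and ADAMTS4 in catagen over anagen (−0.26, and −0.28 without the top cells, against 0.39). Thinned to 3000 UMIs, detection was 35.4%, 28.9% and 41.5% (TIMP1), 7.68%, 9.07% and 3.36% (TIMP3), 33.5%, 27.1% and 12.4% (ADAMTS1) and 0.647% (ADAMTS4, anagen), and unthinned it was 49.2%, 33.7% and 50.9%, 13.2%, 11.4% and 6.16%, 43.1%, 27.5% and 18.1%, and 0.926%, 0.340% and 0.179%. Unthinned, TIMP1 with ADAMTS1 in anagen was 1.2 times the product. Of the 3 listed metalloproteinase and matrix genes at 50 CPM or more, 0 were lower in catagen or telogen against anagen. Median-of-ratios scaling made 1 of 9 higher in telogen over anagen. Shares of all genes under these settings are not given. Under other clusterings, or with the highest Scrublet scores removed, the level of single named clusters moved in 19 cases and stayed in 45. No direction changed among them. Of 44 searches for a named cluster under another clustering, with more than 1 search per cluster, 11 found no counterpart. The causes were not tested. No paired analysis was possible because each stage has 1 library. Depth limits ADAMTS4 most, with 92 UMIs in telogen.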
